A study of Rattus norvegicus with 12 samples.

Results

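The enzymes that carry glucose to pyruvate and on through the tricarboxylic acid (TCA) cycle were followed in rat hippocampal neurons after oxygen-glucose deprivation (OGD), a culture model of ischemia. They were 44 genes, of 15154 gene symbols named on the array: 2 glucose transporters, 9 enzymes of upper glycolysis, 5 of lower glycolysis, 2 lactate dehydrogenase subunits, 3 pyruvate dehydrogenase kinases, 4 subunits of the pyruvate dehydrogenase complex and 19 enzymes or subunits of the TCA cycle. The list was drawn up by pathway role, with earlier results of these data known, and each gene is represented by 1 probe, the one with the highest mean signal among those that were saturated on no array, or the brightest where there was none. Primary hippocampal neurons of E18 embryos of the Wistar strain were grown for 14-15 days, and the labels name no altered gene in any group. The OGD cultures spent 2 h in an anaerobic chamber in a saline without glucose, in which sucrose took its place. The control cultures spent the same time in a saline with glucose in an air/CO2 incubator. Both then recovered in conditioned medium, and RNA was collected after 7 h or 24 h. Of each of the 4 groups (control 7 h, OGD 7 h, control 24 h and OGD 24 h) 3 independent cultures were measured, 1 on each of 12 one-color arrays. The labels do not say whether arrays of different groups with the same replicate number share a cell preparation. The cultures hold some glial cells besides neurons, and a lower signal from fewer cells of a type cannot be told apart from less RNA per cell.

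Glycolysis splits glucose into pyruvate in the cytosol and yields a little ATP without oxygen, provided that lactate dehydrogenase turns pyruvate into lactate and so restores NAD+. With oxygen, the pyruvate dehydrogenase complex passes pyruvate into the mitochondrial TCA cycle as acetyl-CoA, and the pyruvate dehydrogenase kinases switch that complex off. Neurons depend heavily on the oxidative route, and in hypoxia the factor HIF-1 is known to raise the transcription of glucose transporters, most glycolytic enzymes, Ldha and Pdk1.

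The core letters of the HIF-1 binding element, ACGTG or GCGTG, were searched on both strands of the RefSeq promoter windows (build GRCr8, 250 bases before to 50 bases after a gene's start), with overlapping matches counted. Of the 44 genes, 41 had a window, and 26 of these (63.4%) held the letters in at least 1 of their windows, against 44.6% of all 27457 genes of the table. Slc2a3, Pgk1 and Idh3a were not in it. The windows of 4 genes that return below are printed, with each match in capitals (CACGT or CACGC where it lies on the other strand): Slc2a1, the transporter at the entrance of the pathway (chr5:138002272-138002571 on the plus strand), Ldha, at its anaerobic end (chr1:106507842-106508141 on the plus strand), Pdk1, at the branch into the mitochondrion (chr3:77113264-77113563 on the plus strand), and Mdh1, a malate dehydrogenase whose signal was among the lowest after OGD relative to control (chr14:99847178-99847477 on the minus strand).
Slc2a1: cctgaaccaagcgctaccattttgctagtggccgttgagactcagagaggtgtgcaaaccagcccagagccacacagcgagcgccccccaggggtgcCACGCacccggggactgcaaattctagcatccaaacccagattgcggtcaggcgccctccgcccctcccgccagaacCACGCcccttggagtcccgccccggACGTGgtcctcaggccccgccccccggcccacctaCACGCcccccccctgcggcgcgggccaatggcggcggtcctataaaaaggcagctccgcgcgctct
Ldha: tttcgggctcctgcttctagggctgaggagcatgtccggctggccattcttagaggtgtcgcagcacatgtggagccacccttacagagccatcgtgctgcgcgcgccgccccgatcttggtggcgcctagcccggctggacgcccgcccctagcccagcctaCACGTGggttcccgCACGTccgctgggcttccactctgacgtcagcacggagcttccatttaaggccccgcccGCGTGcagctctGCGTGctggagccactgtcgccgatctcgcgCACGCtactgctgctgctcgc
Pdk1: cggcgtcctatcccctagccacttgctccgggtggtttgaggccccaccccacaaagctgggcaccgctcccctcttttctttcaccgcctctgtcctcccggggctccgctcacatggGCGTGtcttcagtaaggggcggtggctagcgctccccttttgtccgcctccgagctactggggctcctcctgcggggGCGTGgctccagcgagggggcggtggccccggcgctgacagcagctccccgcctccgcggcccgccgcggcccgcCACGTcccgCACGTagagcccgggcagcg
Mdh1: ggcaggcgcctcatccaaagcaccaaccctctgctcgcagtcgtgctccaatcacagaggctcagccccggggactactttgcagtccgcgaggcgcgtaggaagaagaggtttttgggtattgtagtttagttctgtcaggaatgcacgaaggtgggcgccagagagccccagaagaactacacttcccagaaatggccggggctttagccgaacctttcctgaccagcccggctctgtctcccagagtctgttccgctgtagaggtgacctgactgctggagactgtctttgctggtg
The window of Ldha held 6 matches, in which a CACGTG counts on both strands, those of Slc2a1 and Pdk1 held 4 each and that of Mdh1 held 0. These 4 windows were picked and do not stand for the list. That of Hk2, whose changes were above 0 at both times, held 0. Those of Pdhb, Pdha1 and Dlat, whose changes were below 0 at both times, held 5, 3 and 3. Whether matches go with the direction of a change was not tested. A match is a description of the letters, and these arrays did not measure binding.

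Levels are given as the normalised log2 signal, the log2 intensity of a probe minus the median of its array, and a change is the OGD mean minus the control mean on that scale, so that 1 is a doubling. The median intensity of the arrays was 131 on OGD 24 h replicate 1, 234 on OGD 7 h replicate 1 and between 364 and 660 on the others, and 78.3% to 87.1% of the spots exceeded background clearly. The 6 slides each held a pair of arrays, control and OGD, with matching recovery time and number. The slides of the 2 times were scanned on different days, so that time, slide and scan day cannot be told apart for any level compared between 7 h and 24 h. Within a slide, control 7 h replicates 1 and 2 were scanned 211 minutes after the OGD array, and control 24 h replicate 1 177 minutes after it. On the remaining slides the 2 arrays had the same scan time. limma found 0 of 30367 probes at an adjusted p under 0.05 at either time, while 3590 probes at 7 h and 4160 at 24 h passed 0.05 before adjustment. None of the changes below therefore passed the adjustment. Each SE below comes from 1 spread per probe shared by the 4 groups, so it is the same at both times. The median SD of the 38 genes measured was 0.18 on the control and 0.19 on the OGD arrays at 7 h. At 24 h it was 0.21 and 0.48, so the SE and p at 7 h carry the wider spread of OGD 24 h. A direction is relative to the array median. Scaling to the spike-in probe instead moved the median of all probes to -0.86 at 7 h and -1.01 at 24 h. It turned the changes of Slc2a3 at 7 h and Hk2 at 24 h to -0.0054 and -0.087, and those of Slc2a1 and Cs at 7 h to -0.53 and -0.63. The log2 signal of that probe itself ran from 5.58 on control 7 h replicate 1 to 12.56 on OGD 24 h replicate 1. The array medians ran only from 6.23 to 8.20, so this scaling sets no firm zero. Of the cell type markers, all 17 neuron markers were well above background on all 12 arrays, as were 12 of 13 astrocyte, 12 of 14 oligodendrocyte and 9 of 14 microglia markers, while the microglia and leukocyte marker Ptprc was so on 0 arrays.

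In all, 5 abundant enzymes could not be measured as a change. Gapdh, the dehydrogenase of glyceraldehyde 3-phosphate, was saturated on 10 of 12 arrays, Pgk1 (phosphoglycerate kinase), Pgam1 (phosphoglycerate mutase) and Ldha (the M subunit of lactate dehydrogenase) on 11 each, and Eno1 (the ubiquitous enolase) on 8. A saturated spot reads the ceiling of the scanner, so its normalised signal only mirrors the median of the array. Not every array was at the ceiling: Gapdh was saturated on 2 of 3 OGD arrays at each time. At 7 h Eno1 was saturated on all 3 control arrays and on 0 OGD arrays, so its apparent change there is only an upper limit. Gapdh read 7.68, 8.12 and 7.81 on the control arrays of replicates 1 to 3 at 7 h and 8.62, 8.35 and 8.20 on the OGD arrays. By 24 h the values were 8.31, 8.11 and 8.17 on the control arrays and 8.82, 8.43 and 7.99 on the OGD arrays. The high values lay on the dim arrays, as they did for Ldha, which read 7.98, 8.38 and 8.14 against 9.27, 8.70 and 8.52 at 7 h and 8.68, 8.40 and 8.42 against 9.43, 8.71 and 8.30 at 24 h. Over the 315 probes that were saturated on 10 or more arrays, the median apparent change was 0.64 at 7 h and 0.48 at 24 h, and the 5 enzymes lay between 0.25 and 0.66 and between 0.08 and 0.34, so no fold is given for them. The Gapdh probe with the fewest saturated arrays was still saturated on 3 of 12, all of them control arrays, so it gives no fold either.

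**Figure D1:**
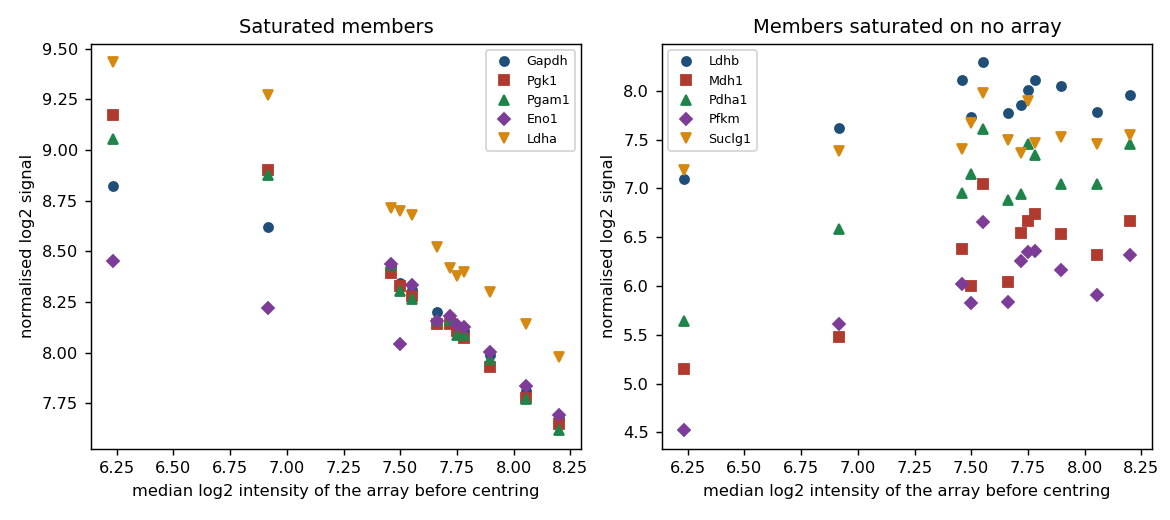
Normalised log2 signal of each of the 12 arrays (vertical axis) against the median log2 intensity of that array before centring (horizontal axis), for the 5 saturated genes on the left and for 5 genes saturated on no array on the right. The saturated genes decline as the array median rises, Ldha from 9.43 on the dimmest array to 7.98 on the brightest, while the unsaturated genes are lowest on the dimmest array.

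For 2 further genes, Hk1 and Pfkp, 1 array each was saturated, a control array at 7 h, so their changes at 7 h are uncertain. Pdk4, a kinase of pyruvate dehydrogenase induced by fasting in many tissues, was well above background on 1 of 12 arrays, an OGD 24 h array. It read -5.39, -5.52 and -5.79 on the control arrays and -3.47, -5.50 and -5.48 on the OGD arrays of 7 h, and -5.74, -5.87 and -5.30 against -3.19, -3.85 and -5.28 at 24 h. The highest values lay on the 2 dimmest arrays and on OGD 24 h replicate 2. At 24 h the fit met the rule of an unadjusted p under 0.05 and a fold of 2 (limma adjusted p = 0.316), but with 0 control arrays and 1 of 3 OGD arrays well above background no fold is given at either time. That left 38 genes with a measured change, of which 36 were saturated on no array.

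At 7 h, 29 of the 38 measured genes were lower after OGD than in control cultures and 9 were higher, with a median change of -0.21 against -0.06 over all probes, of which 54.8% were below 0. Of the unsaturated probes between 4 and 8 above the array median, where most of these genes lay, 59.0% were below 0. At an unadjusted p under 0.05 in limma, 2 were lower, Pdk1 and Mdh2, and 1 was higher, Slc2a3. When single arrays were dropped in turn, the count lower ran from 0, without control 7 h replicate 1 or 2, to 8, without OGD 24 h replicate 1, which enters through the shared estimate of the spread. The 2 genes are 5.26%, where 7.03% of all probes were lower and 4.79% higher by the same rule. None of the 38 also reached a fold of 2, a rule that 1.66% of all probes met as lower and 2.08% as higher, and the lowest adjusted p was 0.331. The OGD arrays lay below all control arrays for 13 of the 38 genes (34.2%), against 15.5% of all probes, and above them for 1, Slc2a3, against 10.6%. The 13 were Pfkm, Aldoa, Pkm, Ldhb, Pdk1, Pdhb, Dld, Idh3b, Ogdh, Sucla2, Sdha, Mdh1 and Mdh2, so that they came from lower glycolysis, the pyruvate dehydrogenase complex and the TCA cycle as well as from upper glycolysis. Some gaps were very narrow: the highest OGD and lowest control values were 7.778 and 7.787 for Ldhb and 5.802 and 5.804 for Idh3b.

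At 24 h, 34 of the 38 genes were lower and 4 were higher, with a median change of -0.34 against 0.01 over all probes, of which 48% were below 0. Of the unsaturated probes between 4 and 8 above the array median, 62.4% were below 0. At an unadjusted p under 0.05, 4 were lower, Gpi, Pfkm, Pdk1 and Mdh1, and 1 was higher, Hk2. That is 10.5% lower, where 6.19% of all probes were lower and 7.51% higher. Again 0 of the 38 reached a fold of 2 as well, which 1.96% of all probes did as lower and 3.71% as higher (5.67% in all), and the lowest adjusted p was 0.334. The OGD arrays lay below all control arrays for 2 genes, Pfkm and Mdh1 (5.26%, against 7.02% of all probes), and above them for 2, Hk2 and Idh2, against 10.9%. On all 3 slides the OGD array was lower for 8 genes (21.1%, against 12.1% of all probes) and higher for 3 (7.89%, against 20.9%).  OGD 24 h replicate 1, the dimmest array, held the lowest of the 6 values of that time for 31 of the 38 genes. Without it, 0 genes passed 0.05 before adjustment as lower, and the count ran up to 10 when OGD 24 h replicate 3 was left out instead.

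**Figure D2:**
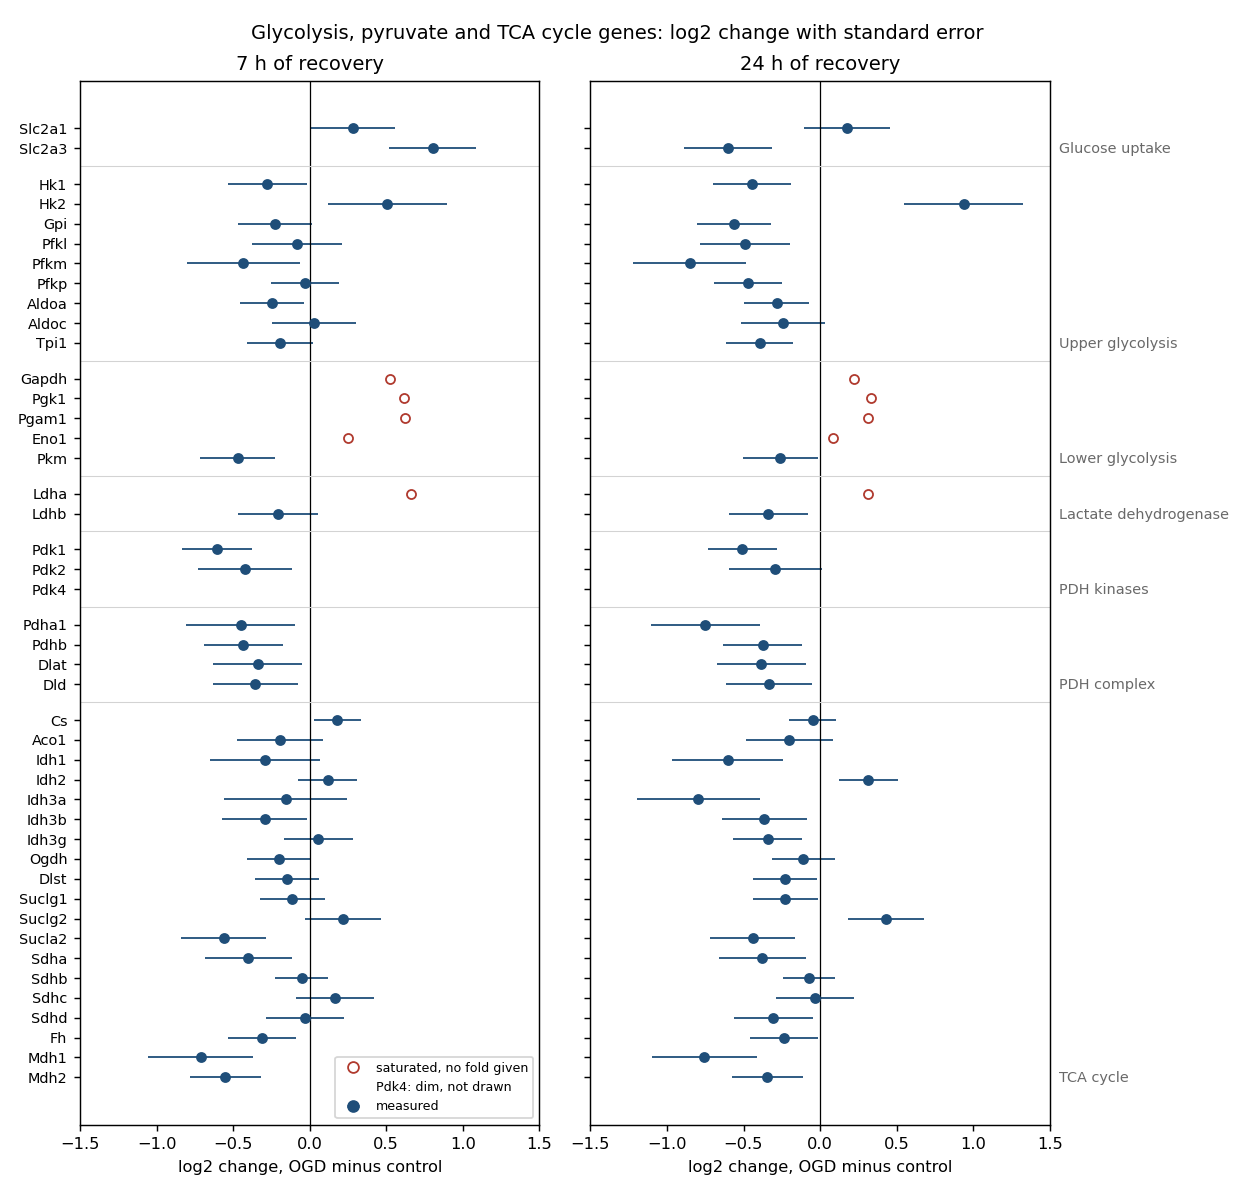
Log2 change, OGD minus control, of each gene at 7 h (left) and 24 h (right), in the order of the pathway. Filled points are the limma estimates with their standard errors (n = 3 arrays per group, with 1 spread shared by the 4 groups). Open points are saturated genes without a usable fold, and Pdk4 is not drawn because it was dim. Most filled points lie left of 0, on a scale relative to the array median. The highest are Slc2a3 at 0.80 and Hk2 at 0.51 at 7 h, and Hk2 at 0.94 at 24 h. Scaling to the spike-in probe, which itself varied widely between arrays, put Slc2a3 at 7 h at -0.0054 and Hk2 at 24 h at -0.087.

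Both glucose transporters had changes above 0 at 7 h. Slc2a3 encodes GLUT3, the main transporter of neurons. Its signal was 1.10, 1.12 and 0.79 on the control arrays of replicates 1 to 3 at 7 h and 2.04, 2.13 and 1.23 on the OGD arrays. All OGD arrays lay above all control arrays, and the change was 0.80 ± 0.29 (SE, n = 3 per group, 1.74-fold higher, limma adjusted p = 0.331). At 24 h the signal was 1.13, 0.83 and 0.36 on the control arrays and 0.18, 0.44 and -0.11 on the OGD arrays. The OGD array was lower on each of the 3 slides, but the groups overlapped, and the change was -0.60 ± 0.29 (limma adjusted p = 0.384). Before adjustment this was under 0.05 with the slide as a block or without control 24 h replicate 3, OGD 24 h replicate 2 or OGD 7 h replicate 3, and not otherwise in limma on the same values. The difference between the changes of the 2 times was -1.40 (limma interaction, adjusted p = 1). It was the 1 gene of the 38 with an unadjusted interaction p under 0.05, where 3.58% of all probes had one, and it had none with spike-in scaling, with normexp or without the slides of replicate 1. The 7 h change lost an unadjusted p under 0.05 when control 7 h replicate 3, OGD 7 h replicate 1 or OGD 7 h replicate 2 was left out, and likewise without both slides of replicate 1, where it was 0.73.

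Slc2a1 encodes GLUT1, the transporter of glia and of the blood-brain barrier. Its signal was 5.73, 4.97 and 5.38 on the control arrays at 7 h and 6.01, 5.24 and 5.66 on the OGD arrays. The 24 h arrays read 4.98, 4.82 and 4.45 on the control arrays and 4.60, 4.93 and 5.25 on the OGD arrays. Within each 7 h slide the OGD array was the higher one, by 0.27 to 0.29, although the cultures differed more than that from each other and the groups overlapped. The changes were 0.28 ± 0.28 (SE, n = 3 per group, limma adjusted p = 0.718) and 0.18 ± 0.28 (adjusted p = 0.807).

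Of the 9 genes of upper glycolysis, 7 were lower at 7 h and 8 at 24 h, with medians of -0.19 and -0.44. Hk2 encodes hexokinase 2, an inducible enzyme that traps glucose as glucose 6-phosphate at the mitochondrial surface. Its signal was 0.29, -0.58 and -0.13 on the control arrays at 7 h and 0.62, 0.31 and 0.17 on the OGD arrays. After 24 h of recovery they were -1.89, -2.03 and -1.37 on the control arrays and 0.13, -1.36 and -1.25 on the OGD arrays. The OGD array was the higher one on all 6 slides, and at 24 h the groups did not overlap, although replicates 2 and 3 of OGD lay close to control replicate 3. The change was 0.51 ± 0.39 (SE, n = 3 per group, limma adjusted p = 0.621) at 7 h and 0.94 ± 0.39 (1.92-fold higher, adjusted p = 0.334) at 24 h. Without OGD 24 h replicate 1 the 24 h change was 0.46 and no longer under 0.05 before adjustment, and leaving out control 24 h replicate 1 or 2 ended the call as well. The mean control level was 1.63 lower at 24 h than at 7 h.

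Gpi and Pfkm were the 2 genes of upper glycolysis that passed 0.05 before adjustment as lower at 24 h, and are described because of these values. Gpi, the isomerase that turns glucose 6-phosphate into fructose 6-phosphate, had a change of -0.23 ± 0.24 at 7 h and of -0.56 ± 0.24 (SE, n = 3 per group, limma adjusted p = 0.351) at 24 h. Pfkm, the muscle type subunit of phosphofructokinase, which catalyses the committed step, had a signal of 6.32, 6.35 and 5.91 on the control arrays at 7 h and 5.61, 5.83 and 5.83 on the OGD arrays. At 24 h Pfkm read 6.65, 6.36 and 6.25 on the control arrays and 4.52, 6.02 and 6.17 on the OGD arrays. The OGD arrays lay below the control arrays at both times, and at 24 h replicate 1 stood far below the other two. The changes of Pfkm were -0.43 ± 0.37 (limma adjusted p = 0.661) and -0.85 ± 0.37 (1.81-fold lower, adjusted p = 0.352). Without OGD 24 h replicate 1, the 24 h changes were -0.31 for Gpi and -0.33 for Pfkm. Leaving out 1 of the 12 arrays ended the call of Gpi for 6 of them and that of Pfkm for 9, and the slide as a block ended both.

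The other genes of the upper part did not pass the test at either time. Hk1, the constitutive hexokinase of brain, had changes of -0.28 and -0.44, and the other phosphofructokinase subunits Pfkl and Pfkp had -0.08 and -0.03 at 7 h and -0.49 and -0.47 at 24 h. The aldolases Aldoa and Aldoc, the latter the brain form found in astrocytes, had -0.25 and 0.03 at 7 h and -0.28 and -0.24 at 24 h. Triose phosphate isomerase, Tpi1, had -0.19 and -0.40. For Aldoc and Tpi1 these are second, unsaturated probes, because the brightest were saturated on 11 and 2 arrays. The brighter Tpi1 probe, saturated on 1 control array at each time, had 0.31 ± 0.20 at 7 h and -0.15 ± 0.20 at 24 h (SE). The 2 Tpi1 probes thus differed in sign at 7 h, where Tpi1 is counted as lower.

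**Figure D3:**
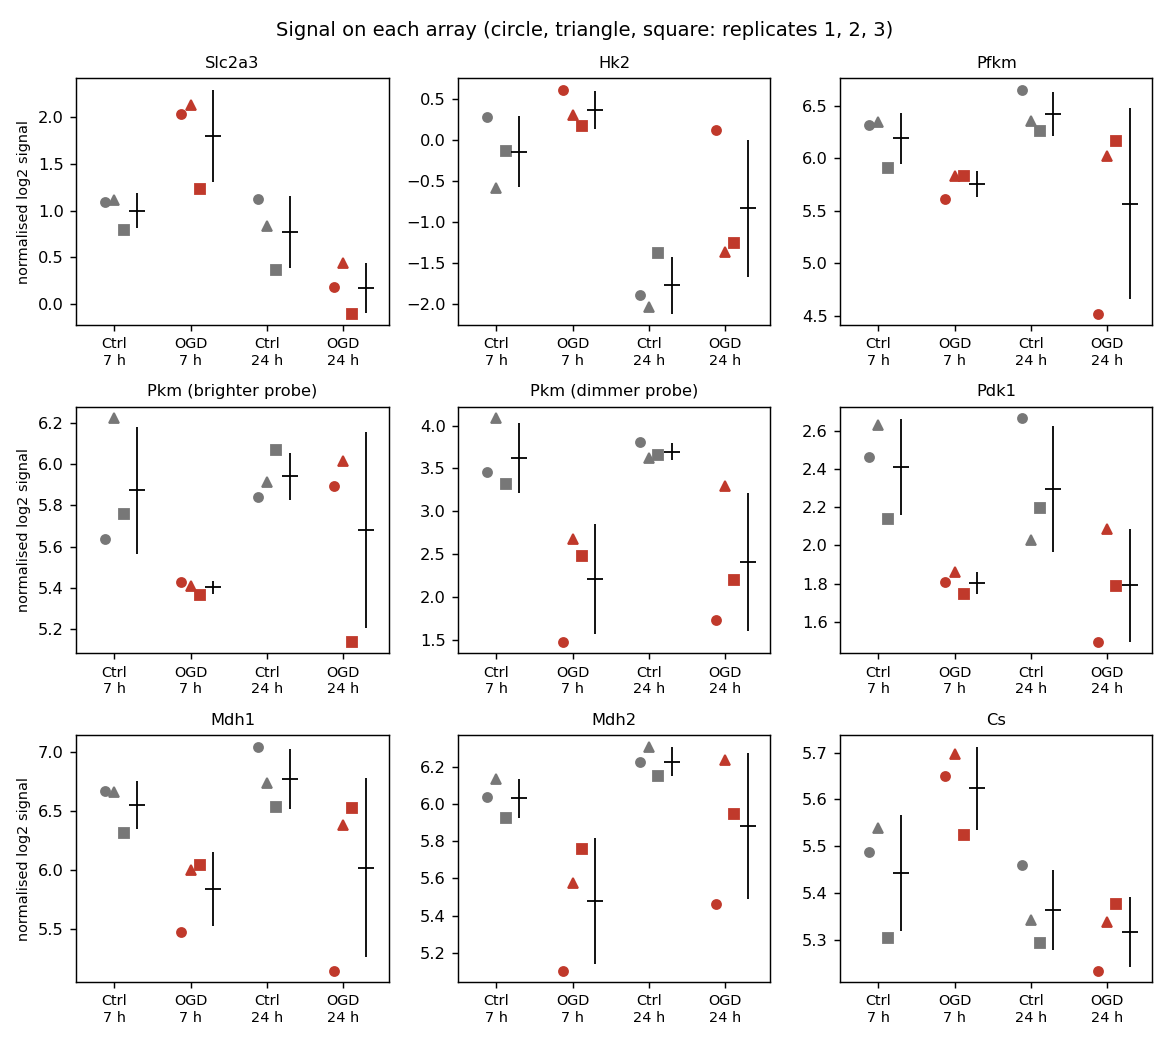
Normalised log2 signal of 8 genes on each array (vertical axis), with control arrays in grey and OGD arrays in red, symbols for replicates 1, 2 and 3, and the mean with its SD (n = 3) beside each group. Slc2a3 is high on the OGD arrays at 7 h and low at 24 h, Hk2 is low on the control arrays at 24 h, and replicate 1 of OGD 24 h stands apart for Hk2, Pfkm, Mdh1 and Mdh2.

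In lower glycolysis only Pkm, pyruvate kinase, which makes pyruvate and ATP from phosphoenolpyruvate, was measured. Its 2 probes, which carry the same transcript accession, differed in size and in call. The brighter probe read 5.64, 6.22 and 5.76 on the control arrays and 5.43, 5.41 and 5.37 on the OGD arrays at 7 h. The values at 24 h were 5.84, 5.91 and 6.07 against 5.89, 6.01 and 5.14. The groups were apart at 7 h and overlapped at 24 h, with changes of -0.47 ± 0.25 (SE, n = 3 per group, limma adjusted p = 0.479) and -0.26 ± 0.25 (adjusted p = 0.643).

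The dimmer Pkm probe read 3.46, 4.09 and 3.32 on the control arrays at 7 h and 1.47, 2.67 and 2.48 on the OGD arrays. At 24 h it read 3.81, 3.62 and 3.66 against 1.72, 3.29 and 2.20. All OGD arrays lay below all control arrays at both times, and its changes were -1.42 ± 0.42 (SE, n = 3 per group, limma adjusted p = 0.274) and -1.29 ± 0.42 (adjusted p = 0.290). This probe met the rule of an unadjusted p under 0.05 and a fold of at least 2 at both times, while the brighter probe did not at either. Without the replicate 1 slides its 24 h change was -0.89 and no longer under 0.05 before adjustment. Where in the transcript the 2 probes lie, and whether they read the M1 and M2 splice forms alike, was not tested.

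Ldhb, the heart type subunit of lactate dehydrogenase that is abundant in neurons, was measured on all arrays. Its signal was 7.96, 8.01 and 7.79 on the control arrays at 7 h and 7.62, 7.73 and 7.78 on the OGD arrays. By 24 h the values were 8.29, 8.12 and 7.85 on the control arrays and 7.10, 8.11 and 8.05 on the OGD arrays. At 7 h the groups were apart only narrowly, with OGD replicate 3 just below control replicate 3, and at 24 h only replicate 1 of OGD was low. The changes were -0.21 ± 0.26 (SE, n = 3 per group, limma adjusted p = 0.779) and -0.34 ± 0.26 (adjusted p = 0.563).

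Pdk1, the kinase that blocks the entry of pyruvate into the TCA cycle, was the 1 member with an unadjusted p under 0.05 at both times. Its signal was 2.46, 2.63 and 2.14 on the control arrays at 7 h and 1.81, 1.86 and 1.75 on the OGD arrays. The 24 h arrays read 2.67, 2.03 and 2.20 on the control arrays and 1.49, 2.09 and 1.79 on the OGD arrays. The OGD arrays of 7 h lay close together below all control arrays, while at 24 h OGD replicate 2 lay above control replicate 2. The change was -0.61 ± 0.23 (SE, n = 3 per group, 1.52-fold lower, limma adjusted p = 0.348) at 7 h and -0.51 ± 0.23 (1.42-fold lower, adjusted p = 0.361) at 24 h. Leaving out 1 of the 12 arrays ended the call for 3 of them at 7 h and for 9 at 24 h, the slide as a block ended both, and without OGD 24 h replicate 1 the 24 h change was -0.36. Pdk2, the most widely expressed of these kinases, had changes of -0.42 ± 0.31 and -0.29 ± 0.31, and its mean control level was 1.05 higher at 24 h than at 7 h.

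All 4 subunits of the pyruvate dehydrogenase complex were lower at both times, and 0 of them passed an unadjusted p of 0.05. Pdha1, the catalytic subunit that the kinases phosphorylate, read 7.46, 7.46 and 7.04 on the control arrays at 7 h and 6.58, 7.14 and 6.88 on the OGD arrays. After 24 h of recovery they were 7.61, 7.34 and 6.94 on the control arrays and 5.64, 6.96 and 7.04 on the OGD arrays. The groups overlapped at both times, with control replicate 3 low, and the changes were -0.45 ± 0.36 (SE, n = 3 per group, limma adjusted p = 0.633) and -0.75 ± 0.36 (adjusted p = 0.384). Without OGD 24 h replicate 1 the 24 h change was -0.30, and without replicate 2 or 3 of that group it was -0.95 or -0.9975 and passed 0.05 before adjustment, as did -0.93 without control 24 h replicate 3. A second Pdha1 probe had -0.36 and -0.72. Pdhb, its partner in the same enzyme, had -0.43 and -0.37, and the acetyltransferase Dlat had -0.34 and -0.38. Dld, the lipoamide dehydrogenase shared with the 2-oxoglutarate dehydrogenase complex, had -0.35 and -0.33.

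Within the TCA cycle, 14 of 19 genes were lower at 7 h and 17 of 19 at 24 h, with medians of -0.16 and -0.24. The malate dehydrogenases had the lowest values at 7 h beside Sucla2. Mdh1, the cytosolic malate dehydrogenase of the malate-aspartate shuttle, read 6.67, 6.67 and 6.31 on the control arrays at 7 h and 5.47, 5.998 and 6.04 on the OGD arrays. The values at 24 h were 7.05, 6.74 and 6.54 on the control arrays and 5.15, 6.38 and 6.53 on the OGD arrays. The groups were apart at both times, narrowly so at 24 h, where OGD replicate 3 lay just below control replicate 3. The changes were -0.71 ± 0.34 (SE, n = 3 per group, 1.64-fold lower, limma adjusted p = 0.446) and -0.76 ± 0.34 (1.69-fold lower, adjusted p = 0.365). Without OGD 24 h replicate 1 the 24 h change was -0.32, and leaving out 1 of the 12 arrays ended the call for 10 of them, as did the slide as a block.

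Mdh2, the malate dehydrogenase of the mitochondrial matrix that closes the cycle, is described because it was lower at 7 h at an unadjusted p under 0.05. It read 6.04, 6.13 and 5.92 on the control arrays and 5.11, 5.57 and 5.76 on the OGD arrays of that time, with a change of -0.55 ± 0.23 (SE, n = 3 per group, 1.47-fold lower, limma adjusted p = 0.396). The groups were apart, with OGD replicate 1 the lowest. At 24 h the change was -0.35 ± 0.23. The slide as a block ended the call at 7 h, as did leaving out any of 6 of the 12 arrays, and without OGD 7 h replicate 1 the change was -0.36.

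Cs, citrate synthase, which starts the cycle and is often used as a measure of mitochondrial content, had a change above 0 at 7 h and close to 0 at 24 h. It read 5.49, 5.54 and 5.30 on the control arrays at 7 h and 5.65, 5.70 and 5.52 on the OGD arrays. At 24 h it read 5.46, 5.34 and 5.29 against 5.23, 5.34 and 5.38. The OGD array was the higher one on each 7 h slide, the groups overlapped at both times, and the changes were 0.18 ± 0.15 (SE, n = 3 per group, limma adjusted p = 0.655) and -0.05 ± 0.15 (adjusted p = 0.931).

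The isocitrate dehydrogenases had changes in both directions. Idh2, the NADP-dependent mitochondrial form, had changes of 0.12 and 0.32, and its OGD arrays lay above all control arrays at 24 h. The NAD-dependent enzyme of the cycle proper had -0.16 and -0.79 for its catalytic subunit Idh3a, -0.29 and -0.36 for Idh3b and 0.06 and -0.34 for Idh3g, and the cytosolic Idh1 had -0.29 and -0.60. For Idh3a, OGD 24 h replicate 1 read 2.38 where the other OGD arrays read 4.15 and 3.90. The mean control level of Idh3a was 1.16 higher at 24 h than at 7 h. The cytosolic aconitase Aco1, which also binds iron-responsive RNA, had -0.19 and -0.20.

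The later steps also held both directions. Ogdh and Dlst, subunits of the 2-oxoglutarate dehydrogenase complex, had -0.20 and -0.15 at 7 h and -0.11 and -0.23 at 24 h. Of the succinyl-CoA ligase subunits, the ATP-forming Sucla2 had -0.56 and -0.44, the shared Suclg1 had -0.11 and -0.23, and the GTP-forming Suclg2 had 0.22 and 0.43. Suclg2 was higher on the OGD array of all 6 slides, and did not pass the test at either time. Of all probes, 23.7% were higher on all 3 slides at 7 h and 20.9% at 24 h. The flavoprotein of succinate dehydrogenase, Sdha, had -0.40 and -0.38, its iron-sulfur subunit Sdhb had -0.05 and -0.07, and its membrane anchors Sdhc and Sdhd had 0.16 and -0.03 at 7 h and -0.03 and -0.30 at 24 h. Fumarase, Fh, had -0.31 and -0.24.

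By branch, the 13 measured genes of transport, glycolysis and lactate formation had median changes of -0.19 at 7 h and -0.40 at 24 h. With the 5 saturated genes counted at their apparent values, these medians over 18 genes were close to 0 and -0.27. The 23 genes of the pyruvate dehydrogenase complex and the TCA cycle had -0.20 and -0.33, and 18 and 21 of them were lower. Among bright probes (between 4 and 8 above the array median and not saturated, 4919 in all) the medians were -0.07 and -0.11. At an unadjusted p under 0.05, 4.37% of these probes were lower and 4.15% higher at 7 h, and 7.77% and 5.63% at 24 h. Most of the genes lay in this range of brightness, but some did not, among them the dimmer Slc2a3, Hk2 and Pfkl. The slides differed strongly. For the 23 genes, the median difference between the OGD and the control array of a slide was -0.62, -0.21 and 0.04 for replicates 1 to 3 at 7 h and -1.01, -0.07 and 0.18 at 24 h. On the slide of replicate 3 at 24 h, 3 of the 23 were lower and 20 higher, where 12599 of all probes were lower and 17754 higher. For the 13 genes of the glycolytic branch the median difference was -0.21, -0.19 and 0.00 at 7 h and -1.02, -0.15 and -0.01 at 24 h. Over all probes it was 0.03, 0.03 and -0.02 at 7 h and 0.09, -0.03 and 0.12 at 24 h. The slides of replicate 1 hold the 2 dimmest arrays, and the part of array brightness in these values was not tested. On these slides and on that of replicate 2 at 7 h the control array was scanned later than the OGD array. Scan time and OGD cannot be told apart there, and the part of scan time was not tested. Without the slides of replicate 1 the 24 h median of the 23 genes was 0.047, beside 0.046 over all probes. Without OGD 24 h replicate 1 alone the median of the 23 genes was -0.02, with -0.25 for the 13 and -0.003 over all probes.

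**Figure D4:**
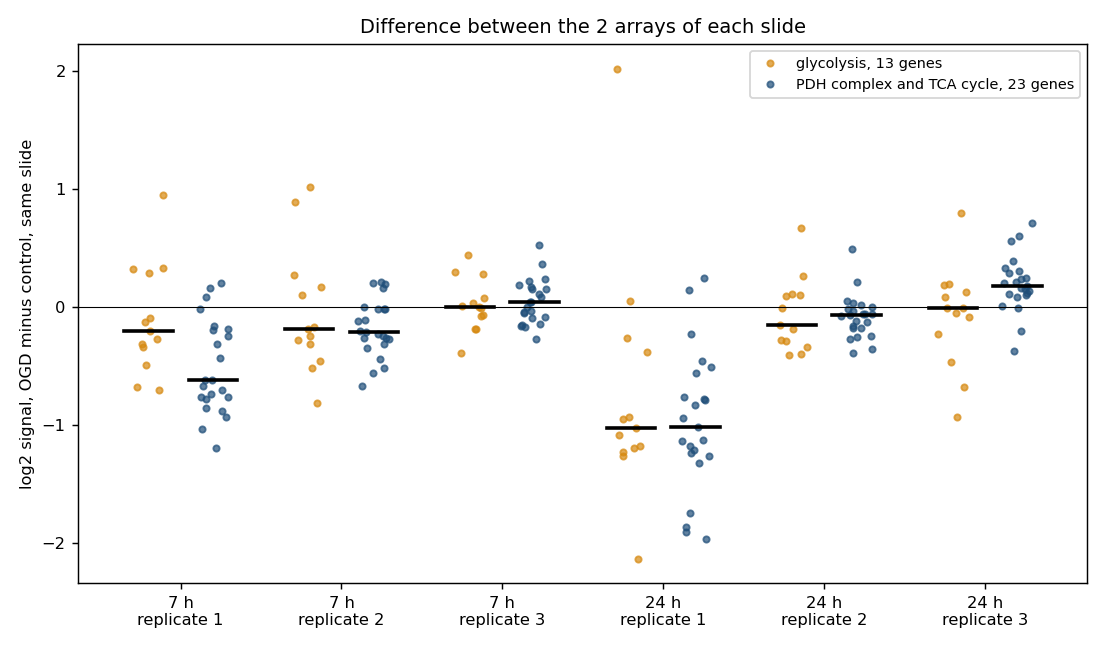
Difference in normalised log2 signal between the OGD and the control array of each of the 6 slides (vertical axis), with a point for each of the 13 glycolytic genes and each of the 23 genes of the pyruvate dehydrogenase (PDH) complex and TCA cycle, and black bars for medians. The slides of replicate 1 hold the lowest medians at both times, of -0.62 at 7 h and -1.01 at 24 h for the 23 genes. On these slides, and on that of replicate 2 at 7 h, the control array was scanned later than the OGD array. On the slides of replicate 3 the medians of these genes lie at 0.04 and 0.18, where those of all probes are -0.02 and 0.12.

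Neuron markers were lower after OGD as well. At 7 h, 13 of the 17 were lower, with a median change of -0.39 and 1 lower at an unadjusted p under 0.05 (5.88%, against 7.03% of all probes). At 24 h all 17 were lower, with a median of -0.65 and 10 at an unadjusted p under 0.05 (58.8%, against 6.19%). The mean level of the list ran from 4.02 to 4.33 on the control arrays and from 3.58 to 4.07 on the OGD arrays at 7 h. At 24 h it ran from 4.12 to 4.59 and from 2.85 to 3.95. The astrocyte list of 13 genes had medians of 0.11 and -0.19 with 0 genes at an unadjusted p under 0.05, and its level ran from 4.40 to 5.05 on the control and from 3.79 to 5.19 on the OGD arrays at 24 h. The 14 microglia markers had medians of 0.33 and 0.32, the 14 of the oligodendrocyte lineage -0.15 and 0.07, and the 14 vascular markers 0.02 and 0.23. At an unadjusted p under 0.05, 1 microglia marker was higher at each time. Of the oligodendrocyte lineage 3 were lower at 7 h and 1 higher at 24 h, and of the vascular markers 3 were lower at 7 h and 2 higher at 24 h. The shares of all probes that were higher were 4.79% at 7 h and 7.51% at 24 h. The part of cell composition in the changes of the metabolic genes was not tested.

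Of 66 further genes around these pathways (other isoforms, regulators, the pentose phosphate pathway, glycogen metabolism and the shuttles), 2 were higher and 9 lower at 7 h, and 3 were higher and 7 lower at 24 h, all before adjustment at p under 0.05. The lower ones were 13.6% and 10.6%, beside 7.03% and 6.19% of all probes, and the higher ones 3.03% and 4.55%, beside 4.79% and 7.51%. The medians were -0.10 and -0.27. With a fold of at least 2 as well, 2 were lower at 7 h, Slc2a8 and Eno2, and 1 was lower, Eno2, and 1 higher, Gapdhs, at 24 h. By that rule 1.66% of all probes were lower at 7 h, and 1.96% were lower and 3.71% higher at 24 h. 

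Eno2 is the enolase of mature neurons, the isoform of the step for which Eno1 was saturated. It read 4.50, 4.89 and 4.43 on the control arrays at 7 h and 3.28, 3.74 and 3.53 on the OGD arrays. By 24 h the values were 4.73, 4.30 and 4.35 against 3.39, 3.94 and 2.88. The groups were well apart at both times, and the changes were -1.10 ± 0.27 (SE, n = 3 per group, limma adjusted p = 0.254) and -1.06 ± 0.27 (adjusted p = 0.262). Slc2a8, which encodes the intracellular transporter GLUT8, read 2.05, 2.30 and 1.92 on the control arrays at 7 h and 0.53, 1.12 and 1.03 on the OGD arrays, a change of -1.20 ± 0.26 (limma adjusted p = 0.196). At 24 h Slc2a8 read 2.30, 1.86 and 1.92 against 1.02, 1.79 and 1.10, its groups again apart, with a change of -0.72 ± 0.26 (limma adjusted p = 0.300), which lost its unadjusted p under 0.05 without control 24 h replicate 1, OGD 24 h replicate 1 or OGD 24 h replicate 3. Gapdhs, the sperm form of the dehydrogenase, read -4.03, -3.48 and -3.60 on the control arrays and -1.79, -3.18 and -2.84 on the OGD arrays at 24 h, a change of 1.10 ± 0.44 (limma adjusted p = 0.329), but it was dim and well above background on 8 of 12 arrays. Without OGD 24 h replicate 1 it was 0.69 and no longer called.

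Another 3 of these genes passed 0.05 before adjustment as lower at both times, with OGD arrays below all control arrays, and are named because of these values. The aspartate aminotransferases Got1 and Got2 work with Mdh1 and Mdh2 in the malate-aspartate shuttle, which carries the reducing power of glycolysis into mitochondria. Got1, the cytosolic one, had changes of -0.88 ± 0.37 (SE, n = 3 per group, limma adjusted p = 0.396) and -0.95 ± 0.37 (adjusted p = 0.317). Got2, the mitochondrial one, had -0.69 ± 0.23 (limma adjusted p = 0.314) and -0.58 ± 0.23 (adjusted p = 0.321). Pdk3, a further pyruvate dehydrogenase kinase, had -0.75 ± 0.27 (limma adjusted p = 0.333) and -0.66 ± 0.27 (adjusted p = 0.334). Without OGD 24 h replicate 1, the 24 h changes were -0.47 for Got1, -0.44 for Got2 and -0.30 for Pdk3, none under 0.05 before adjustment. Without OGD 7 h replicate 1, the 7 h changes were -0.69, -0.50 and -0.70, also not under 0.05. The slide as a block ended the calls of Got1 at both times and that of Pdk3 at 24 h.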

How the data were processed

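The authors labeled the RNA of 1 culture per array with Cy3 and read Agilent rat arrays with Feature Extraction 10.5.1.1. The deposited intensity values are spot signals from which that software had subtracted the background, with flags for saturated, dim and outlying spots, and arrays were not normalized to each other. Besides these, log2 values were deposited by the authors, centred on the array median with BRB-ArrayTools, which differ from the log2 intensities by 1 constant per array. Probes were named through RefSeq accessions (18004 of 30367), with symbols of the GRCr8 table.

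From the intensities, outlier spots were left out, logarithms to base 2 were averaged over a probe's spots, and each array's median was subtracted. Of the 42877 spots per array that are no controls, 244 to 905 were saturated. The number of arrays limits the precision. The 4 groups were fitted in 1 model with limma 3.58.1 in R 4.3.3, with two-sided tests adjusted by the Benjamini-Hochberg method over all probes. The procedure was tested on simulated data. A gene whose probes were all saturated on several arrays has no fold, and neither has Pdk4, which was too dim.

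Values on every array are given for genes of the list called by p and fold, at an unadjusted p under 0.05 at both times or in the interaction, and for Slc2a1, Hk2, Gapdh, Ldha, Ldhb, Pdk1, Pdha1, Cs and Mdh1. Of the further pathway genes, those that met both p and fold at either time are named, and Got1, Got2 and Pdk3 were added after their values were seen. The genes, lists and rules were chosen with earlier results of these data known. The medians of the glycolytic genes were planned over all 18, and are given over the 13 that were measured as well.

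The settings varied were the centring (75th percentile, quantile or spike-in probe in place of the median), normexp background correction (offset 50, on the median spot signal, as no mean signal was given), leaving out dim probes, the authors' log2 values, the methods' t-test, limma on each time alone, the slide as fixed or random block, the mean over a gene's probes, the brightest probe, and each array left out in turn. Leaving out the slides of replicate 1 was added after seeing the data.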

Additional observations from a re-analysis of the deposited data

Results flagged for a closer look

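The changes of Slc2a3, the neuronal glucose transporter, at the 2 times differed by -1.40 (24 h minus 7 h), with an unadjusted limma interaction p under 0.05 and an adjusted p of 1, which is what marked it for a closer look. Its change was 0.80 at 7 h, with the OGD array higher on all 3 slides, as for 23.7% of all probes. At 24 h it was -0.60, with the OGD array lower on all 3, as for 12.1% of all probes. The 24 h change did not pass 0.05 before adjustment, and its groups overlapped. The interaction was not under 0.05 with spike-in scaling, with normexp or without the slides of replicate 1. With spike-in scaling the 7 h change was -0.0054, but the spike-in probe itself varied widely between arrays. No other of the 38 measured genes had an unadjusted interaction p under 0.05.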

How the results depend on the processing

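The counts of genes at an unadjusted p under 0.05 are small and moved with most choices. With scaling to the spike-in probe, all 4 counts (lower and higher at 7 h and 24 h) and the interaction count were 0. The medians of the glycolytic genes were then -1.001 and -1.42, those of the pyruvate dehydrogenase and TCA cycle genes -1.01 and -1.36, and Slc2a3 at 7 h and Hk2 at 24 h turned to -0.0054 and -0.087. The same scaling moved the median of all probes to -0.86 and -1.01, and the log2 signal of the spike-in probe itself ran from 5.58 to 12.56 over the arrays. With normexp, 5 genes were lower and 0 higher at 7 h, 0 and 0 at 24 h and 0 in the interaction, and the 7 h medians were -0.77 for the glycolytic and -0.74 for the other genes. The methods' t-test gave 5 lower and 0 higher at 7 h and none (0 and 0) at 24 h, and limma on each time alone gave 4 lower at 7 h, and at 24 h 0 in either direction. Quantile normalization gave 5 lower at 7 h, 3 higher at 24 h and a 7 h glycolytic median of -0.38. Centring on the 75th percentile gave 4 lower at 7 h and 3 higher at 24 h, and moved the median of all probes to 0.06 and 0.12. The brightest probe whether saturated or not gave 2 higher at 7 h.

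The slide as a replicate block gave 0 lower at 7 h and 1 lower at 24 h, and the counts of higher genes stayed at 1. The replicate numbers were not taken as pairs, since deviations of same-numbered arrays had correlations between -0.05 and 0.17. As a random block the slide had a consensus correlation of 0.0176. Leaving out the slides of replicate 1, chosen after seeing the data, gave 0 higher at 7 h, 0 lower at 24 h and 0 in the interaction. The 24 h median of the pyruvate dehydrogenase and TCA cycle genes was then 0.047, beside 0.046 over all probes.

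With each array left out in turn, the count lower ran from 0 to 8 at 7 h and from 0 to 10 at 24 h, that of higher from 0 to 1 at both times, and that of the interaction from 1 to 2. The glycolytic medians ran from -0.27 to -0.10 and from -0.50 to -0.25, and those of the other genes from -0.31 to -0.16 and from -0.51 to -0.02. The cause of these shifts was not tested. Saturation limits the 5 brightest glycolytic genes, and low signal limits Pdk4 and Gapdhs. The interaction could not be had from the t-test or from each time alone.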
